A study of Mus musculus with 6 samples.

Results

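GABA-gene neurons are the neurons of a mouse hypothalamic sort in which at least 1 count of Gad1, Gad2 or Slc32a1 was found, so the members were chosen by the measured counts of these genes. A well was kept if 500 or more genes were detected and mitochondrial genes took less than 25% of its counts, and a kept well was called a neuron with at least 3 counts of Snap25, Syt1 and Stmn2 summed, which encode synaptic and growth-associated proteins of neurons. Of 576 wells, 530 were kept and 499 were neurons, of which 79 (15.8%) were GABA-gene neurons. The 79 divided into 26 GABA-only neurons, with no count of Slc17a6, and 53 dual neurons, with at least 1 count of Slc17a6. The 420 GABA-undetected neurons are the other neurons of the sort.

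Single-cell RNA was measured in 6 mice at postnatal day 10, 3 male and 3 female, all of genotype Ai14f/+;Sf1-Cre, with 1 plate of 96 wells per mouse. All 6 mice carried both the Cre driver and the reporter. Sf1-Cre acts from regulatory sequence of Nr5a1, the gene of the transcription factor SF-1, and the Ai14 reporter then marks a cell and its descendants for good, so a sorted cell need not still express Nr5a1. The labels name the ventromedial hypothalamus (VMH) as the tissue, a rough dissection of the hypothalamus, papain dissociation and sorting by fluorescence.

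GABA is made from glutamate by the decarboxylases that Gad1 and Gad2 encode, and Slc32a1 encodes the transporter that loads it into synaptic vesicles. Slc17a6 encodes the vesicular glutamate transporter VGLUT2. In the GENCODE vM21 annotation of GRCm38, Gad1 lies at chr2:70553072-70602014, Gad2 at chr2:22622205-22693874, Slc32a1 at chr2:158610767-158615748 and Slc17a6 at chr7:51622006-51671119, all on the plus strand. The VMH is known as a nucleus made up mainly of glutamatergic neurons, whereas GABA neurons are common in the arcuate nucleus and in the rim around the VMH.

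The plates held 185981 to 783398 counts. Female 2 stood apart from the other mice, with a median of 2200.5 counts per neuron, against 5565.5 to 7979.5 in the others, and with low values of genes such as Tspan7 (213 CPM in its GABA-undetected neurons, against 1591 to 2295 in those of the other 5 mice). CPM, the level used throughout, is a gene's count over the wells of a group in a mouse, scaled to the summed counts of those wells. Results that rest on female 2 are therefore given with and without it. The labels name no batch, and 0 kept wells had a column identical to another. The plates use the same 96 well names, which are positions and not shared cells. The Y-linked genes held 10, 7 and 12 counts in the GABA-gene neurons of males 1, 2 and 3, against 1, 0 and 0 counts in those of females 1, 2 and 3.

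The rule's own genes describe the members and were not tested. Gad1 had a count in 18 of 26 GABA-only neurons (69.2%) and 17 of 53 dual neurons (32.1%). Gad2 had one in 13 of 26 GABA-only neurons and 38 of 53 dual neurons (71.7%). Slc32a1 was found in 9 GABA-only neurons (34.6%) and 3 dual neurons (5.66%). Dual neurons were thus mostly wells with Gad2 and without Slc32a1, and 34 of the 53 had Gad2 as the only one of the 3 genes. Slc17a6 was at a summed 660 CPM in dual neurons and 540 CPM in GABA-undetected neurons, where 349 of 420 wells had a count of it. In dual neurons the median was 4 counts of Slc17a6, against 3 in GABA-undetected neurons. The rule requires a count of Slc17a6 in dual neurons but not in GABA-undetected neurons, of which 71 had none. The higher values in dual neurons are thus partly set by the rule.

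The counts behind membership were few. Of the 79 neurons, 36 stood just inside the threshold with exactly 1 count of the 3 genes, 9 of them GABA-only and 27 dual, and 43 had 2 or more. The 36 had a median of 6395 counts in all, the 43 had 5543, and the 420 just outside the threshold had 6176.5. Among the 31 kept wells that are not neurons (median 1130 counts), 1 (3.23%) had a count of the 3 genes. In the 46 wells left out, no count of them was found among 4640 counts, which allows a share of up to 6.52% of such wells. These wells were far shallower than the neurons, so their shares set no exact background. When each neuron was thinned to 2427 counts, which left out 50 shallower ones, 38 of 449 neurons (8.46%) had a count, so the share of members moves with depth.

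Dual wells were not deeper than other wells with Slc17a6. Their median was 6668 counts, against 6659 in the 349 GABA-undetected neurons with Slc17a6, while GABA-only neurons had 5375. No doublet caller was run, and whether some dual wells held more than 1 cell was not tested. The deepest dual well, from female 3, held 22385 counts, with 11 of Gad1 and 8 of Slc17a6.

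GABA-gene neurons were found in every mouse. They made up 18.5%, 13.6% and 17.4% of the neurons of males 1, 2 and 3, against 15.8%, 8.33% and 19.8% of those of females 1, 2 and 3. Males averaged 16.5% ± 2.57 and females 14.6% ± 5.80 (SD, n = 3 each), and the ranges overlapped. The difference of 1.85 percentage points gave p = 0.7 in a two-sided exact permutation test over mice, where the smallest possible p is 0.1. Without female 2 the difference was -1.30 percentage points, so its direction rests on that mouse.

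GABA-only neurons numbered 8, 5 and 3 in males 1, 2 and 3, against 2, 5 and 3 in females 1, 2 and 3. Dual neurons numbered 9, 6 and 13 in the males, against 10, 1 and 14 in the females. The GABA-only share of the members was 37.1% ± 15.9 in males and 39.2% ± 38.2 in females (SD, n = 3 each; difference -2.13 percentage points, exact permutation p = 1). Female 2, the shallowest library, had 5 of 6 members GABA-only (83.3%), and the part of its depth in this share was not tested. Among neurons thinned to 2427 counts, 22 members were GABA-only and 16 dual, against 26 and 53 at full depth. The split of the members thus also moves with depth. The difference was 19.9 percentage points without female 2, 7.04 without male 3 and -13.4 and -12.9 without female 1 and female 3.

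**Figure D1:**
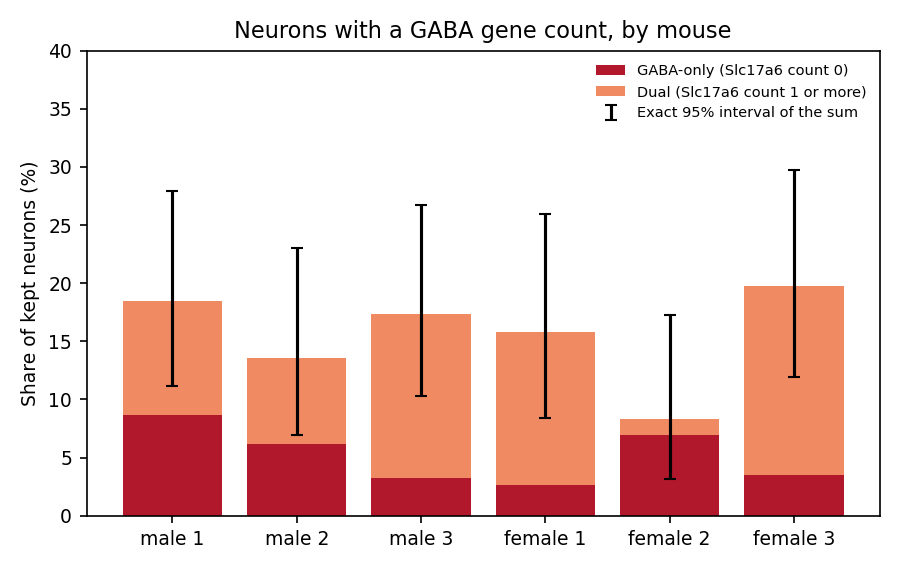
Share of each mouse's kept neurons (y axis, %) that were GABA-only or dual, stacked, for males 1 to 3 and females 1 to 3 (x axis), with the exact 95% interval of the sum. The sums run from 8.33% in female 2 to 19.8% in female 3, and the males lie between 13.6% and 18.5%.

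Genes outside the rule were counted over wells pooled from all mice, as a description. A count of Dlx1, which encodes a homeodomain factor of GABA neuron development, was found in 8 of 499 neurons, and all 8 were GABA-gene neurons, 5 GABA-only and 3 dual. None of the 420 GABA-undetected neurons had one, which allows a share of up to 0.714%. The 8 wells came from males 1 and 3 and females 1 and 2, with none in male 2 or female 3. Otp, which encodes a homeodomain factor of neuroendocrine hypothalamic neurons, was found in 5 GABA-only neurons, no dual neuron and 1 GABA-undetected neuron.

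The GABA-only neurons fell into non-overlapping sets by the genes Pomc, Sst and Dlx1, with limits chosen after seeing the values. In 6 wells, from males 1, 2 and 3 and female 3, there were 59 to 101 counts of Pomc, the precursor gene of melanocortin peptides and of beta-endorphin. These wells had no Slc32a1 count, 5 of the 6 had Gad1, and 5 had Tbx3, which encodes a T-box factor of arcuate neurons. In 10 wells, from all 6 mice, there were 10 to 405 counts of Sst, the somatostatin precursor gene. Of these 10, 6 had Slc32a1, 9 had Ecel1 and 5 had Otp. In 5 further wells, from male 1 and females 1 and 2, Dlx1 was found, and 4 of these had Gal. The last 5 wells had none of the 3 genes.

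In dual neurons the same sets were small. Of 53 wells, 3 were Pomc-rich (at least 10 counts), 6 were Sst-rich (at least 10 counts) and 3 had Dlx1, and the other 41 had none of these. The share of Pomc-rich wells was 6 of 26 among GABA-only neurons, 3 of 53 among dual neurons and 8 of 420 among GABA-undetected neurons. Sst-rich wells numbered 10, 6 and 18 in the same groups. Read the other way, 9 of 17 Pomc-rich neurons (52.9%) and 16 of 34 Sst-rich neurons (47.1%) had a GABA gene count. The share of neurons with Nr5a1 was 3 of 26 (11.5%) in GABA-only, 19 of 53 (35.8%) in dual and 133 of 420 (31.7%) in GABA-undetected neurons.

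**Figure D2:**
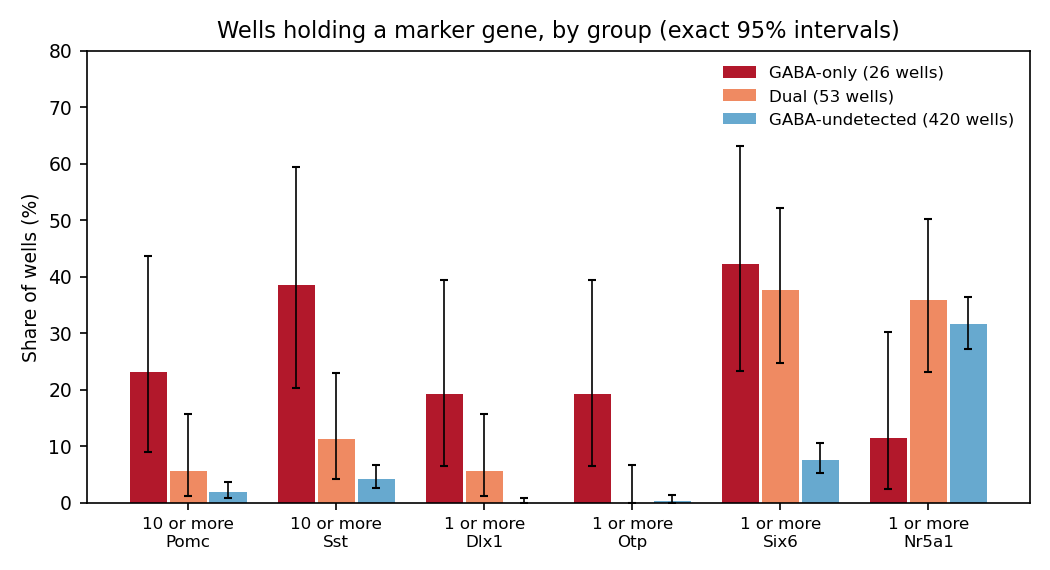
Share of wells (y axis, %) with at least 10 counts of Pomc or Sst or at least 1 count of Dlx1, Otp, Six6 or Nr5a1 (x axis), in GABA-only, dual and GABA-undetected neurons, pooled over mice with exact 95% intervals for counting error only. Dlx1 was found in 5 GABA-only and 3 dual wells and in none of the 420 GABA-undetected wells, and Six6 in 42.3%, 37.7% and 7.62% of wells.

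Gal and Penk had been proposed as markers of these cells from earlier results of the same data, so their values only describe the label. Gal, the galanin precursor gene, had a count in 9 of 26 GABA-only neurons (34.6%), 8 of 53 dual neurons (15.1%) and 25 of 420 GABA-undetected neurons (5.95%). All 3 neurons with at least 10 counts of Gal were members and had Dlx1 and Penk, and 1 of them held 41 of the 90 counts of the dual group. Penk, the enkephalin precursor gene, was found in 2 GABA-only (7.69%), 11 dual (20.8%) and 63 GABA-undetected neurons (15.0%). Gal thus had a count in a minority of the members, and Penk in a smaller share of GABA-only than of GABA-undetected wells, so the neurons are called here by their rule.

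The promoters of Sst and Pomc, the peptide genes with the most counts in GABA-only neurons, are shown as the 250 bases before the transcription start, from RefSeq on GRCm38.p6. Capitals mark TGACGTCA, the cyclic AMP response element, and TAATTA, a core bound by many homeodomain proteins. Both motifs read alike on either strand and do not overlap each other. The Sst window is chr16:23890845-23891094 on the minus strand and the Pomc window chr12:3954695-3954944 on the plus strand. The GENCODE start of Sst lies upstream of the RefSeq start used here, so the end of the Sst window falls inside the gene as GENCODE gives it.
Sst: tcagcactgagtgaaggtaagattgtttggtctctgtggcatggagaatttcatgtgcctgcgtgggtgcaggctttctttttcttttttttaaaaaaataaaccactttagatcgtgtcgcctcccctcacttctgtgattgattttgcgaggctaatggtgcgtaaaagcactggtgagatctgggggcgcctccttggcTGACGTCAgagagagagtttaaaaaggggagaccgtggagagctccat
Pomc: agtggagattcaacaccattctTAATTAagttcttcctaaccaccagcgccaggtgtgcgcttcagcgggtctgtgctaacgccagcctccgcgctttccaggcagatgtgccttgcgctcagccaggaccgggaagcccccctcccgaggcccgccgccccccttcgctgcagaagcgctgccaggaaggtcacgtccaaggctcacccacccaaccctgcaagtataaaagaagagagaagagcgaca
TGACGTCA begins 48 bases before the Sst start and is found in 1.55% of 32851 promoter windows of this length. TAATTA begins 228 bases before the Pomc start and is found in 4.84% of them. The windows of Gad1, Gad2 and Slc32a1, all on chromosome 2, hold neither motif, nor do those of Gal, Six6, Dlx1 and Otp. The windows of Gad1 and Dlx1 lie wholly inside the genes as GENCODE gives them, and those of Gad2 and Otp partly. A match describes the letters and says nothing of binding.

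GABA-only neurons were compared with GABA-undetected neurons of the same mice by summing counts per mouse and group, with the mouse as a block (edgeR's quasi-likelihood test, Benjamini-Hochberg adjustment over 1913 genes). Female 1, with 2 GABA-only neurons, was left out, so 5 mice and 24 GABA-only neurons entered. GABA-only neurons were high in the peptide genes Sst and Pomc and in Ecel1, and low in genes of VMH neurons such as Fezf1, Bdnf, Tac1 and Adcyap1. At an adjusted p under 0.05, 9 genes (0.47%) were higher and 30 (1.57%) were lower, 6 and 24 of them in the same direction in every mouse. In such bulk sums, fewer cells of a type and less RNA per cell cannot be told apart.

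Sst (chr16:23889573-23890958, minus strand) was at 1757, 15411 and 10663 CPM in GABA-only neurons of males 1, 2 and 3 and at 2136 and 18793 CPM in those of females 2 and 3. In GABA-undetected neurons of the same mice it was at 196, 792 and 213 CPM in the males and 1506 and 246 CPM in the females. Every GABA-only value lay above every GABA-undetected value (log2 fold change 4.18 ± 0.35 SE, adjusted p = 9.89e-14 in edgeR), but 405 of 1270 counts (31.9%) came from 1 well and 10 of 26 wells held any. Sst did not pass with robust quasi-likelihood, a choice made after seeing the data (adjusted p = 0.233).

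Pomc (chr12:3954951-3960642, plus strand) was at 2426, 6067 and 4035 CPM in GABA-only neurons of males 1, 2 and 3 and at 0 and 4547 CPM in those of females 2 and 3. In GABA-undetected neurons it was at 102, 265 and 246 CPM in the males and 32.3 and 1195 CPM in the females. The gene was higher in 4 of 5 mice (log2 fold change 3.66 ± 0.24, adjusted p = 1.98e-17 in edgeR), all of it from the 6 Pomc-rich wells. It did not pass with robust quasi-likelihood (adjusted p = 0.110) or without the mouse block (adjusted p = 0.118).

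Ecel1, which encodes an endopeptidase-like protein of neurons, was more evenly spread. It was at 210, 488 and 165 CPM in GABA-only neurons of males 1, 2 and 3 and 291 and 139 CPM in those of females 2 and 3, against 19.7, 41.9, 25.6, 19.4 and 23.7 CPM in GABA-undetected neurons of the same mice. It rose by 3.21 ± 0.40 on the log2 scale (adjusted p = 5.47e-08 in edgeR), and 12 of 26 wells had a count. Of these 12 wells, 9 were Sst-rich. Ecel1 passed in each of the 13 alternatives that tested it, of 15 run. It passed the filter on low counts only through the GABA-only group, where it was high, so its test is a description.

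The other genes higher in every mouse were not peptide genes. Cd63, which encodes a tetraspanin of late endosomes, averaged 303 ± 95.7 CPM in GABA-only neurons and 79.4 ± 26.0 CPM in GABA-undetected neurons (SD, n = 5; log2 fold change 1.71 ± 0.32). Psme2, which encodes a proteasome activator subunit, rose by 1.52 ± 0.33, Tox2, which encodes an HMG-box factor, by 1.09 ± 0.30, and Gpx3, which encodes a secreted glutathione peroxidase, by 0.91 ± 0.17 on the log2 scale. Psme2, like Ecel1, passed the filter on low counts only through the GABA-only group, so its test is a description. Cd63 passed it mainly through that group, where it was high, so its test is a description as well. Among thinned neurons, Cd63 had a log2 fold change of -0.63 (adjusted p = 0.999 in edgeR). That fit held 3 mice and 19 GABA-only wells, without female 2 and male 3, which had the highest values. Groups were assigned anew after thinning, and female 3, male 1 and male 2 had 3, 8 and 5 GABA-only wells at full depth. Depth, the mice left out and the changed membership therefore cannot be told apart. Gpx3 did not pass without Pomc-rich wells (log2 fold change 0.47, adjusted p = 1.00). Tox2 kept its call in 4 of 15 alternatives and lost it without female 2 (log2 fold change 0.98), female 3 (1.19), male 1 (1.00) or male 3 (1.12; adjusted p up to 0.225 in edgeR).

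Of the GABAergic transcription factor list, 2 of 18 genes passed the filter on low counts and both rose, in 4 of 5 mice each. Over all genes tested, 0.47% were higher. Both genes passed the filter mainly through the GABA-only group, where they were high, so the count is a description. Isl1, which encodes a LIM-homeodomain factor of arcuate neurons, had a log2 fold change of 1.67 ± 0.42 (adjusted p = 0.0143 in edgeR), and Six3, which encodes a homeodomain factor of the anterior forebrain, one of 1.64 ± 0.36 (adjusted p = 0.00324). Six3 did not pass without male 1 (log2 fold change 1.09, adjusted p = 0.354) and kept its call in 7 of 13 alternatives, and Isl1 kept its call in 6 of 10 (adjusted p up to 0.604). Isl1 was also the only 1 of 11 arcuate and tuberal factors that passed the filter.

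The genes that fell in GABA-only neurons were led by VMH genes. Of the 18 genes of the VMH identity list, 7 passed the filter, 5 fell, none rose and 2 did not pass the test. Their median log2 fold change was -3.73 (-3.21 with the genes at 0 set to their bound), against -0.03 over all genes tested. Over all genes tested, 1.57% were lower. Since a gene of this list passes the filter through the larger GABA-undetected group, the count is a description.

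Fezf1, which encodes a zinc finger factor of VMH development, had no count in GABA-only neurons of any mouse. In GABA-undetected neurons it was at 182, 146 and 219 CPM in males 1, 2 and 3 and 110 and 293 CPM in females 2 and 3. Against a floor of 3 counts over the group, GABA-only neurons were at least 9.25-fold lower (adjusted p = 5.58e-06 in edgeR). Bdnf, which encodes a neurotrophin, was also without a count and at least 8.48-fold lower, with 119 to 229 CPM in males and 239 and 244 CPM in females among GABA-undetected neurons. In the 26 GABA-only wells the absence allows a share of up to 11.5% of wells for either gene. Without Pomc-rich wells both were still at 0, in a fit of 3 mice and 14 GABA-only wells, where neither passed (adjusted p = 0.0937 for Fezf1 and 0.110 for Bdnf in edgeR).

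Tac1, the precursor gene of substance P, was at 0, 34.9 and 0 CPM in GABA-only neurons of males 1, 2 and 3 and at 97.1 and 325 CPM in those of females 2 and 3, against 902, 452, 832, 989 and 1232 CPM in GABA-undetected neurons of the same mice. The groups did not overlap, and Tac1 fell by 3.73 ± 0.37 on the log2 scale (adjusted p = 3.51e-11 in edgeR). Adcyap1, which encodes the peptide PACAP, had 1 count in all GABA-only neurons, in female 2, and fell by 4.30 ± 0.82. Without female 2, GABA-only neurons had none and were at least 6.18-fold lower against a floor of 3 counts over the group (adjusted p = 6.37e-06 in edgeR). Cbln1, which encodes a secreted synapse organizer, had 3 counts and a log2 fold change of -3.64 ± 0.53. Pdyn, the dynorphin precursor gene, had a log2 fold change of -1.33 ± 0.43 that did not pass (adjusted p = 0.106), nor did Rprm at -0.54 ± 0.38 (adjusted p = 0.658).

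Genes outside this list also fell. Hpca, which encodes the calcium sensor hippocalcin, fell by 2.50 ± 0.42, and Calb2, which encodes calretinin, by 1.37 ± 0.23. Tmem35a, which encodes a chaperone of nicotinic receptors, fell by 2.15 ± 0.33, Vstm2a by 2.04 ± 0.50, Camkv, which encodes a kinase-like vesicle protein, by 1.72 ± 0.49, and Tusc2 by 2.09 ± 0.53 on the log2 scale. Calls of the last 3 were lost when 1 mouse was left out: Vstm2a without female 3 or male 3 (adjusted p up to 0.139), Camkv without male 2 or male 3 (up to 0.433) and Tusc2 without female 3 or any 1 male (up to 0.0717), with log2 fold changes of -1.21 to -2.26 over these genes wherever a fit without 1 mouse tested them. Over all alternatives, Hpca kept its call in 13 of 15, Calb2 in 12 of 15 and Tmem35a in 11 of 14. The log2 fold change of Calb2 ran from -1.78 to -0.31 over them. Calb2 averaged 367 ± 275 CPM in GABA-only neurons and 876 ± 462 CPM in GABA-undetected neurons (SD, n = 5), and was at 103 CPM in those of female 2 against 912 to 1323 CPM in those of the other 4 mice. Tusc2 passed the filter on low counts only through the GABA-undetected group, where it was high. Hpca, Tmem35a, Vstm2a and Camkv passed it mainly through that group, so the tests of all but Calb2 are descriptions.

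Other lists gave few tested genes. Of 28 peptide precursor genes, 5 were tested, and Sst and Pomc rose while Tac1 and Adcyap1 fell. Of 17 GABA receptor genes 5 were tested, of 5 chloride transporter genes 1 was, of 5 dopamine genes 1 was of 11 immediate early genes 1 was and of 9 astrocyte markers 1 was, and none of these passed. Of 10 interneuron genes 2 were tested, of which Calb2 fell. No gene of GABA uptake and turnover, of the other glutamate transporters, of sex steroid genes or of the microglia, vascular, oligodendrocyte, tanycyte or pituitary lists passed the filter. The chloride exporter gene Slc12a5 was at 158 ± 134 CPM in GABA-only and 160 CPM in GABA-undetected neurons (log2 fold change -0.31 ± 0.37, adjusted p = 0.837).

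Peptide genes below the filter are given as values only. Pnoc, the nociceptin precursor gene, had a count in 8 GABA-only (30.8%), 4 dual (7.55%) and 62 GABA-undetected neurons (14.8%). Npy, the neuropeptide Y precursor gene, was found in 5 GABA-only, 1 dual and 4 GABA-undetected neurons, and 85 of its 130 GABA-only counts lay in 1 Pomc-rich well of male 1. Agrp had 1 count in each of the 3 groups. Th, which encodes the enzyme of dopamine synthesis, had 14 counts, all in 1 Sst-rich GABA-only well of female 3. Ghrh had no count in GABA-only or dual neurons and was found in 5 GABA-undetected neurons.

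Markers of other cell types were counted in the same wells. Of 9 astrocyte markers, 3 had a count in GABA-only neurons, with Slc1a3, Slc1a2, Gja1 and Aqp4 at 0, and the list summed to 209 to 777 CPM per mouse in GABA-only, 496 to 841 CPM in dual and 422 to 816 CPM in GABA-undetected neurons. Aldoc, which neurons also express, averaged 366 ± 237 CPM of this in GABA-only neurons. All 6 microglia markers were at 0 in GABA-only neurons. Of the others, 2 of 8 oligodendrocyte lineage, 2 of 6 vascular, 3 of 6 tanycyte and ependymal and 1 of 6 pituitary markers had a count, at up to 82.3, 97.1, 105 and 19.1 CPM in a mouse, and their part in the results was not tested.

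The 9 higher and 30 lower genes became 27 and 43 of 4152 tested without female 2, 7 and 16 without female 3 and 9 and 17 without male 3. They became 4 and 4 without Pomc-rich wells (a choice made after seeing the data, with 3 mice left). Among thinned neurons they were 2 and 3, in 3 mice and 19 GABA-only wells by groups assigned anew after thinning.

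Dual neurons were compared with GABA-undetected neurons in the same way, without female 2, which had 1 dual neuron. In 5 mice and 52 dual neurons, 3959 genes were tested, of which 7 (0.177%) were higher and 7 (0.177%) lower. Dual neurons were high in Six6 and Rgs10 and lower in Tac1, Bdnf, Fezf1 and Cbln1, though none of these VMH genes was absent. Both comparisons share the GABA-undetected neurons, so their values are not independent of each other.

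Six6 (chr12:72939892-72944899, plus strand), which encodes a homeodomain factor of the developing eye and hypothalamus, was at 182, 91.0 and 80.3 CPM in dual neurons of males 1, 2 and 3 and at 107 and 74.9 CPM in those of females 1 and 3. In GABA-undetected neurons of the same mice it was at 19.7, 8.82, 28.6, 11.1 and 15.1 CPM. Every dual value was above every GABA-undetected value, and Six6 rose by 2.55 ± 0.37 on the log2 scale (adjusted p = 0.00117 in edgeR). It passed in all of the 13 alternatives that tested it, of 15 run, with adjusted p up to 0.0391. Six6 passed the filter on low counts only through the dual group, where it was high, so its test is a description.

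In GABA-only neurons Six6 was below the filter, so it has no test there, with 153, 69.7 and 82.3 CPM in males 1, 2 and 3 and 97.1 and 418 CPM in females 2 and 3. It was found in 31 of the 79 members, and the share was 14 of 36 (38.9%) in wells with 1 GABA gene count and 17 of 43 (39.5%) in wells with 2 or more, against 32 of 420 (7.62%) in GABA-undetected neurons. Fezf1 was found in 5 of 36 (13.9%) and 5 of 43 (11.6%) of these wells, against 200 of 420 (47.6%). Sst was found in 6 of 36 (16.7%) and 16 of 43 (37.2%), against 76 of 420 (18.1%), and Dlx1 in 2 of 36 (5.56%) and 6 of 43 (14.0%), against none. Whether wells with 1 count differ from the others was not tested, and in Sst their share lay near that of GABA-undetected neurons.

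Rgs10, which encodes a regulator of G protein signalling, was at 225, 205 and 229 CPM in dual neurons of males 1, 2 and 3 and 178 and 187 CPM in those of females 1 and 3, against 62.2, 104, 64.8, 38.9 and 58.3 CPM in GABA-undetected neurons. The 2 groups did not overlap, and Rgs10 rose by 1.68 ± 0.23 on the log2 scale (adjusted p = 0.00117 in edgeR). Elmo1, which encodes an activator of Rac signalling, rose by 1.08 ± 0.20, Tmem176b by 1.32 ± 0.23, Ifi27l2a, an interferon-inducible gene, by 1.42 ± 0.28 and Snapc1, which encodes a subunit of a snRNA transcription complex, by 1.41 ± 0.29. Snapc1 and Ifi27l2a passed the filter on low counts mainly through the dual group, where they were high. Their tests are thus descriptions. Gal had a log2 fold change of 3.37 ± 0.51 and was higher in 4 of 5 mice, and as a proposed marker it is given as a description.

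The VMH genes were reduced in dual neurons and not lost. Tac1 was at 28.1, 22.7 and 0 CPM in dual neurons of males 1, 2 and 3 and at 765 and 393 CPM in those of females 1 and 3, against 902, 452, 832, 1318 and 1232 CPM in GABA-undetected neurons of the same mice. It fell in every mouse (log2 fold change -2.17 ± 0.33, adjusted p = 0.00147 in edgeR), but did not pass with robust quasi-likelihood (adjusted p = 0.673) or in DESeq2 (adjusted p = 0.179). The male dual neurons lay below the female ones, a split that was not tested and that rests on few wells. The Tac1 counts of female 1 came from 1 well with 23 and 1 with 20. In female 3 the deepest dual well alone held 29.

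Fezf1 was at 28.1, 45.5 and 45.9 CPM in dual neurons of males 1, 2 and 3 and 17.8 and 187 CPM in those of females 1 and 3, with 11 of its 29 counts in 1 well, and fell by 1.52 ± 0.28 on the log2 scale. Its log2 fold change was -2.42 without female 3, and it did not pass without male 1 (-1.36, adjusted p = 0.0578) or male 3 (-1.38, adjusted p = 0.184). Bdnf fell by 1.72 ± 0.27, Cbln1 by 1.17 ± 0.21 and Tmem35a by 0.99 ± 0.19. Tmem132a had a log2 fold change of -1.50 ± 0.32 and Serpini1, which encodes the serine protease inhibitor neuroserpin, fell by 1.33 ± 0.27. Of the 18 VMH identity genes, 10 were tested, 4 fell and none rose, with a median of -0.86 on the log2 scale, against 0.01 over all genes. Over all genes tested, 0.177% were lower. Fezf1, like Tmem132a, passed the filter mainly through the GABA-undetected group, where it was high, so the count is a description.

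Nr5a1 itself did not pass, at 96.3 ± 59.9 CPM in dual and 87.8 CPM in GABA-undetected neurons (log2 fold change 0.12 ± 0.38, adjusted p = 0.989). Adcyap1 had a log2 fold change of -0.92 ± 0.28 (adjusted p = 0.355), Sox14, which encodes a SOX factor, one of -0.79 ± 0.34 (adjusted p = 0.688) and Penk one of 1.30 ± 0.38 (adjusted p = 0.310). Sst and Pomc, which were raised in GABA-only neurons, had log2 fold changes of 1.88 ± 0.62 and 1.40 ± 0.49 in dual neurons and did not pass (adjusted p = 0.479 and 0.554).

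Among the other lists, 4 of 9 genes of GABA uptake and turnover were tested and none passed, as was the case for 7 of 17 GABA receptor genes, 3 of 11 immediate early genes, 2 of 18 GABAergic transcription factors, 2 of 10 interneuron genes, 1 chloride transporter gene, 1 dopamine gene and 1 astrocyte marker. Of 28 peptide precursors 9 were tested, with Gal higher and Tac1 lower, and of 11 arcuate and tuberal factors 3 were tested, with Six6 higher.

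The count of 7 higher and 7 lower genes became 2 and 2 without male 3 and 4 and 7 without female 1. Without male 1, 3 genes were lower, and among thinned neurons, with 3 mice left, 1 was higher and 1 lower. Without male 3 the calls of Bdnf, Cbln1, Tmem35a, Tmem132a, Serpini1, Elmo1, Tmem176b, Ifi27l2a, Snapc1 and Gal were lost as well (adjusted p 0.0567 to 0.350). Each mouse left out also ended the call of Tmem132a, each but male 2 that of Serpini1, each but female 3 that of Snapc1, female 1 those of Elmo1 and Ifi27l2a, female 3 that of Ifi27l2a and male 1 that of Tmem35a.

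**Figure D3:**
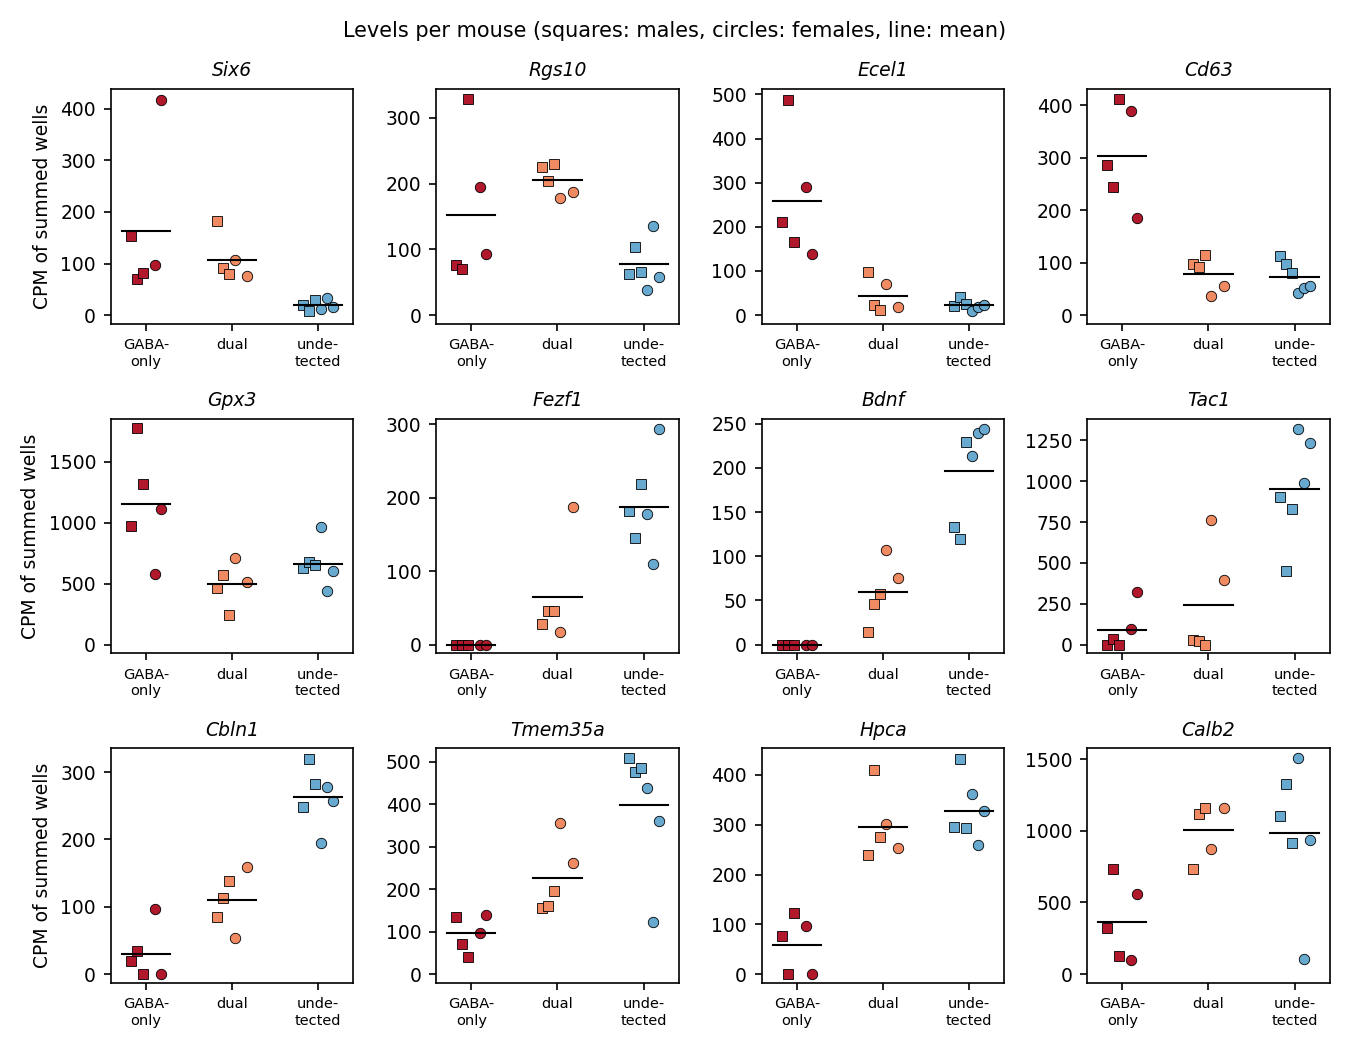
Levels of 12 genes (y axis, CPM of the summed wells) in GABA-only, dual and GABA-undetected neurons (x axis), 1 point per mouse with at least 3 wells in the group and a line at the mean. Fezf1 and Bdnf are at 0 in GABA-only neurons of all 5 mice shown, and Six6 lies between 69.7 and 418 CPM in GABA-only and between 8.82 and 32.3 CPM in GABA-undetected neurons.

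**Figure D4:**
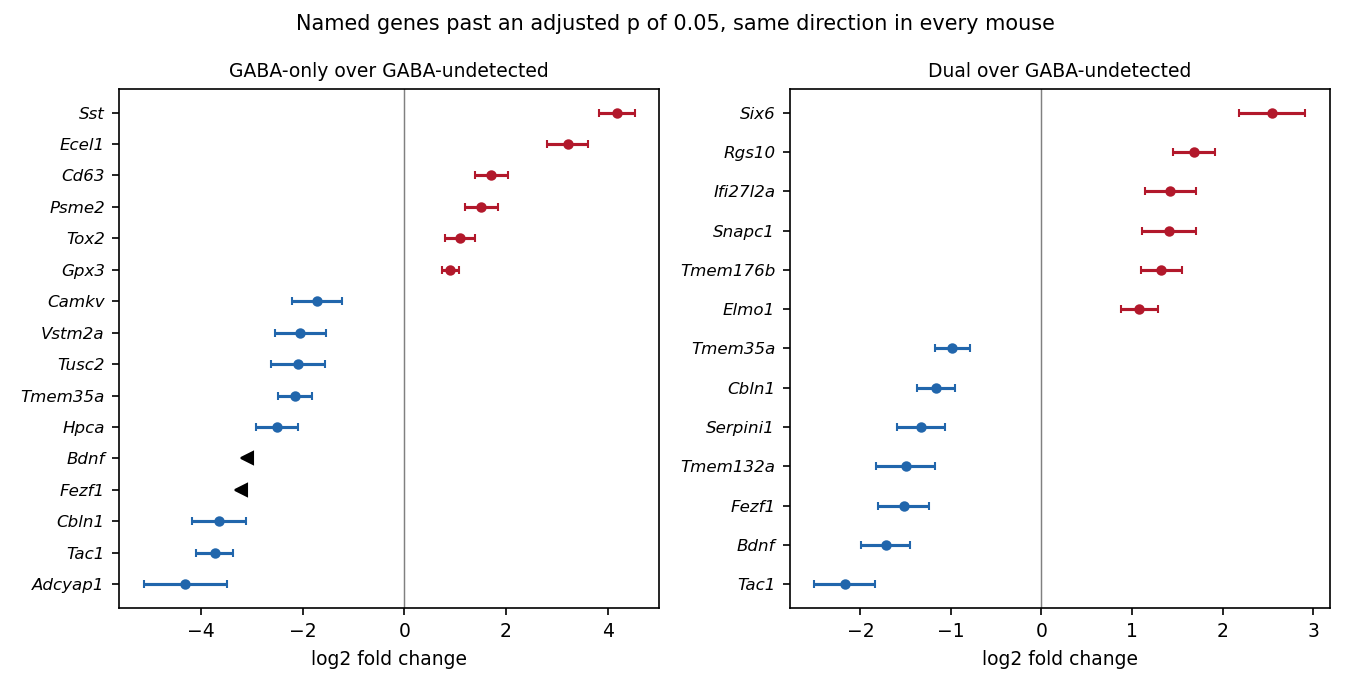
Log2 fold changes (x axis) with standard errors of the genes past an adjusted p of 0.05 in the same direction in every mouse, for GABA-only over GABA-undetected (left) and dual over GABA-undetected neurons (right). Triangles mark Fezf1 and Bdnf, which had no count in GABA-only neurons and are drawn at their bounds of -3.21 and -3.08.

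GABA-only and dual neurons were set against each other in the 4 mice with at least 3 of each (19 and 42 neurons). Among 922 genes, 5 (0.542%) were higher and 8 (0.868%) lower in GABA-only neurons. Pomc and Sst rose, and so did Gpx3 and Ndufa3, which encodes a complex I subunit. The genes that fell included Hpca, Calb2, Tspan7, which encodes a tetraspanin, Aldoc, which encodes a glycolytic aldolase, and Pcp4, which encodes a calmodulin regulator.

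Gpx3 was at 974, 1778 and 1317 CPM in GABA-only neurons of males 1, 2 and 3 and 1114 CPM in those of female 3, against 463, 569, 241 and 515 CPM in dual neurons. The groups did not overlap (log2 fold change 1.48 ± 0.22, adjusted p = 2.05e-07 in edgeR). Tspan7 was at 802, 1011, 412 and 650 CPM in GABA-only and 1558, 1956, 1767 and 1592 CPM in dual neurons of the same mice. It fell by 1.26 ± 0.20 on the log2 scale (adjusted p = 7.59e-07).

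Calb2 averaged 434 ± 266 CPM in GABA-only and 1041 ± 209 CPM in dual neurons (SD, n = 4; log2 fold change -1.29 ± 0.24), and Hpca 49.98 ± 60.8 CPM in GABA-only and 294 ± 78.3 CPM in dual neurons (log2 fold change -2.36 ± 0.48). Aldoc, Pcp4, Rwdd2a and Arhgdig fell by 1.14 ± 0.30, 0.96 ± 0.23, 1.50 ± 0.40 and 0.95 ± 0.27 on the log2 scale, and Chchd10 in 3 of 4 mice by 0.80 ± 0.20. Sst was higher in 3 of 4 mice and lower in male 1, where dual neurons held 2176 CPM. Ndufa3 rose by 0.80 ± 0.21 in all 4 mice. No VMH identity gene passed the filter here. Hpca passed it only through the dual group, Rwdd2a mainly through the dual group and Sst mainly through the GABA-only group. Their tests are thus descriptions.

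None of these 13 calls was kept without female 3 (0 of 948 genes, 87 at an unadjusted p under 0.05, with the lowest adjusted p at 0.0659 in edgeR) or without Pomc-rich wells, which left 2 mice (0 of 664 genes, 31 at an unadjusted p under 0.05). The folds stayed near their size without female 3, with Gpx3 at 1.65 (adjusted p = 0.0659) and Tspan7 at -1.22 (adjusted p = 0.0726) on the log2 scale. DESeq2 called 2 higher and 1 lower, and the lower genes numbered 4 without male 2 and 3 without male 3. Neither Sst nor Pomc passed with robust quasi-likelihood (adjusted p = 0.583 and 0.508).

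Gene expression in all 79 members was compared between 3 male and 3 female mice over 1799 genes. No gene passed (0% called) in edgeR, with 67 at an unadjusted p under 0.05, and DESeq2 also called none, with 14. Genes with the smallest p are given as values that did not pass. Ndn, an imprinted gene encoding necdin, was at 3673, 3620 and 4047 CPM in members of males 1, 2 and 3, against 1136, 2032 and 1816 CPM in those of females 1, 2 and 3. The sexes did not overlap, as was the case for 185 of the 1799 genes tested (10.3%). The log2 fold change of Ndn was 1.24 ± 0.23 (adjusted p = 0.157 in edgeR, and 0.00572 to 0.472 over its 15 alternatives). GABA-undetected neurons held 3576, 2958 and 3584 CPM of Ndn in males 1, 2 and 3, against 877, 1609 and 1329 CPM in females 1, 2 and 3. The split was thus not particular to the members.

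Bnip3, which encodes a mitochondrial BH3 protein, averaged 133 ± 19.9 CPM in males and 10.1 ± 17.5 CPM in females (SD, n = 3 each). Ndufab1, which encodes a mitochondrial acyl carrier protein, averaged 617 ± 63.6 CPM in males and 346 ± 9.43 CPM in females, and Eif4a2, which encodes a translation initiation factor, 87.4 ± 87.6 CPM in males and 429 ± 197 CPM in females. Their adjusted p-values in edgeR were 0.918 for Bnip3 and Eif4a2 and 0.995 for Ndufab1. In GABA-undetected neurons Ndufab1 was at 508 to 662 CPM in males and 378 to 394 CPM in females. Eif4a2 was there at 48.6 to 125 CPM in males and 244 to 708 CPM in females. These 2 genes thus split the GABA-undetected neurons by sex as well, while Bnip3 overlapped there. Sst was at 3617 CPM in males and 3031 CPM in females on average, Pomc at 2591 CPM in males and 449 CPM in females, Gal at 159 CPM in males and 538 CPM in females and Penk at 70.3 CPM in males and 204 CPM in females, and none of these passed (adjusted p = 0.995 or higher). The receptor gene Esr1 had 1 count in the members, in a dual neuron of male 3, so its sex difference was not detectable at this depth.

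In GABA-only neurons alone, 3 males were set against females 2 and 3 over 538 genes, and Ndrg4 was the only gene called (0.186% higher, none lower; 29 genes at an unadjusted p under 0.05 in edgeR, none called by DESeq2). Ndrg4, which encodes a cytoplasmic protein of neurons, was at 1394, 907 and 412 CPM in males 1, 2 and 3 and had no count in females 2 and 3. Males were at least 10.99-fold higher against a floor of 3 counts over the female group (adjusted p = 0.0136 in edgeR). Female 1, left out of the fit for its 2 wells, was at 1948 CPM in them. The number of higher genes was 0 without male 1 or male 2, 2 without male 3, 4 without female 2 and 9 without female 3.

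The same mice differed in Ndrg4 outside the GABA-only neurons. GABA-undetected neurons held 1146, 1279 and 644 CPM in males 1, 2 and 3, against 1757 CPM in female 1, 38.8 CPM in female 2 and 30.2 CPM in female 3. Dual neurons held 1179, 1728 and 815 CPM in the males, against 1191 CPM in female 1 and 28.1 CPM in female 3. The low values thus belonged to females 2 and 3 and not to female 1, and what sets these plates apart was not tested. Npy, Nrgn, Tmsb10 and Pcsk1n had the next smallest p and did not pass (adjusted p = 0.0955, 0.179, 0.264 and 0.274). Npy had 130 counts in males and none in the 2 females.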

How the data were processed

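The authors deposited raw counts of each gene in each well as whole numbers, with HTSeq and mm10 named per the submitters' processing notes. Strand, aligner and whether molecules or reads were counted: not given in the sources used here. Each of the 6 tables held 21926 genes and 96 wells, totalling 185981 to 783398 counts.

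Counts of GABA-only, dual and GABA-undetected neurons were summed per mouse and tested with edgeR 4.0.16 in R 4.3.3 (TMM, filterByExpr, quasi-likelihood, Benjamini-Hochberg 0.05), with DESeq2 1.42.0 as an alternative. Mouse was a block within animals, and mice with under 3 wells in a group were left out. The 7 genes of the rule were taken out of the tests. Python 3.11.15 and scipy 1.17.1 gave exact intervals (95%) and permutation tests. Intervals cover counting error only, and the limit at 0 counts was set at 3 counts. The labels name separate mice. No doublets were called.

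Named genes were up to 10 per direction past the threshold, at 20 CPM in a group and in the same direction in every mouse (for sex, without overlap), by fold size, or the 5 with the smallest p where this gave under 3. Passing list members and defining genes were added, and Chchd10, Otp, Pdyn, Pnoc, Rprm, Slc12a5, Sox14 and Tbx3 were named after their values were seen; a few genes are not reported here. The members, lists and tests were chosen with earlier results of these data known. The fits were tested on simulated data with 200 changed genes. Alternatives were other scalings, filters, limits, thinning (seed 7, with groups assigned anew) and leaving out mice. Gene names of mouse promoters are from RefSeq (GRCm38.p6).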

Additional observations from a re-analysis of the deposited data

Results flagged for a closer look

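Of 90 sets of values per mouse, 11 had 1 mouse far from the others (by the gap to the nearest mouse over the whole range), where chance flags about 1 in 20. In GABA-only neurons, Adcyap1 was at 97.1 CPM in female 2 and 0 in the other 4 mice, Tusc2 was at 0 CPM in female 2 against at least 34.9 CPM in the others, and Ndufa3 was at 907 CPM in male 2, below the other 3 mice of its comparison. In dual neurons, Fezf1 was at 187 CPM in female 3 against at most 45.9 CPM, Tmem132a at 84.2 CPM in male 1 against at most 37.5 CPM, Calb2 at 730 CPM in male 1 against at least 1114 CPM, and Pomc at 4730 CPM in male 2 against at most 746 CPM. In GABA-undetected neurons, Pomc was at 1195 CPM in female 3 against at most 265 CPM, Isl1 at 151 CPM in female 3 against at most 58.8 CPM, Ecel1 at 41.9 CPM in male 2 against at most 25.6 CPM, and Elmo1 at 164 CPM in female 1 against at most 101 CPM.

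The 31 kept wells that are not neurons by the rule, and that entered no comparison, held peptide gene counts. Sst had 140 counts in 5 wells, 119 of them in 1 well, Npy 55 counts and Agrp 38 counts in 1 well each, Gal 26 counts in 2 wells and Penk 17 counts in 3 wells.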

How the results depend on the processing

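Counts of higher and lower genes moved by over 1.5 times in many settings, and the cause was not tested where a setting did not itself drop genes or mice. For GABA-only against GABA-undetected neurons (9 higher, 30 lower) they were 21 and 127 with no filter, 4 and 9 without the mouse block, 2 and 3 in thinned neurons, 4 and 4 without Pomc-rich wells and 5 and 17 against GABA-undetected neurons with Slc17a6 only; DESeq2 gave 14 lower and a limit of 2 GABA gene counts 16 lower. Leaving out 1 mouse gave 7 to 27 higher and 16 to 43 lower. For dual against GABA-undetected neurons (7 and 7) they were 16 and 55 with no filter, 2 and 0 without the block (155 at an unadjusted p under 0.05) and 1 and 1 in thinned neurons, with 4 lower in DESeq2 and 2 to 7 higher and 2 to 8 lower when 1 mouse was left out. For GABA-only against dual neurons (5 and 8) they were 11 and 16 with no filter, 2 and 1 in DESeq2, without the block and with a limit of 2 counts, 0 and 0 without Pomc-rich wells, and 0 to 7 and 0 to 7 without 1 mouse; thinned neurons could not be fitted. For sex in all members (0 and 0) they were 5 and 6 with no filter, 1 and 1 with a limit of 2 counts and 1 higher without Pomc-rich wells, and 0 to 1 and 0 to 2 without 1 mouse. For sex in GABA-only neurons (1 and 0) they were 3 and 1 with no filter, 0 higher in DESeq2, 3 and 2 with a limit of 2 counts, 2 lower in thinned neurons, 7 and 3 without Pomc-rich wells, and 0 to 9 and 0 to 1 without 1 mouse; some of these fits left 1 female, assumed to vary like the males. Whether replicate numbers of the titles pair the sexes cannot be decided from 3 mice of each sex. Correlations of same-numbered deviations were -0.16, -0.12 and 0.21 over 4155 genes. Male 3 and female 3 matched each other best, while female 1 matched male 2 (0.26) and female 2 matched male 1 (0.20). With the replicate block, 0 and 0 genes were called in all members and 3 and 0 in GABA-only neurons. The shares gave p = 0.5 and 1 in exact sign-flip tests. The male minus female share of GABA-gene neurons was -1.30 to 4.42 percentage points without 1 mouse, and the GABA-only share of members -13.4 to 19.9 (7.04 without male 3), and 4.90 in thinned neurons. Of the named genes' values in the 3 group comparisons, 423 of 615 kept direction and side of the threshold, 191 kept direction only, and Cd63 in thinned neurons (-0.63) reversed. At 2427 counts a neuron, 8.46% of neurons had a GABA gene count, against 15.8% at full depth.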
